A study of Homo sapiens with 4 samples.

Results

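Mitotic kinases, kinetochore and spindle genes were examined in SeAx, a cell line of Sézary syndrome, the leukemic form of cutaneous T-cell lymphoma (CTCL). The list held 52 genes, chosen by name for their role in mitosis, with earlier results of these data known. Their probe sets were taken from the Affymetrix PrimeView array by the platform's gene symbol. Of the 52 genes, 51 were measured, among 18244 genes in all. PTTG1, the securin that holds back sister chromatid separation, was named only on a probe set shared with PTTG3P, and no value is given for it. The 4 arrays held total RNA of 2 control samples and of 2 samples with the lentiviral vector encoding miR-124, and the labels number the arrays of each condition 1 and 2. All 4 came from the same line, and the labels say no more of the controls than that word, whereas the methods speak of non-transduced cells. Puromycin selection of the transduced cells is described in the methods, so selection, transduction and miR-124 cannot be told apart in this comparison. What an array number stands for, and whether replicate arrays came from different cultures, is not given in the sources used here. Each p-value measures the spread between these arrays, which may be technical. In a fit with both number and condition no array repeats another. The spread is then how far the difference between numbers varied with the condition, and not a spread of replicates.

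As background, entry into mitosis is driven by CDK1 with the A and B cyclins, which CDC25 phosphatases switch on, together with the Polo and Aurora kinases. Kinetochores assembled on CENPA chromatin capture spindle microtubules, and the spindle checkpoint proteins hold the anaphase-promoting complex in check until every chromosome is attached. The transcripts of these genes accumulate in G2 and M phase, so in an unsorted culture their level depends on how many cells are near mitosis as well as on the transcript amount per cell. The 2 cannot be told apart in bulk RNA.

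Many promoters of this class are known to carry a cell cycle genes homology region (CHR), which the MuvB core of the DREAM and MYB-MuvB complexes binds, and CCAAT boxes, which NF-Y binds. The RefSeq promoter table (GRCh38.p14) gives 250 bases before to 50 bases after each start, and it matched 43 of the 52 genes with 57 promoters. The search covered both strands for the CHR letters TTTGAA and TTTAAA and the CCAAT box letters CCAAT. The CHR letters were found in 41 of the 57 promoters (71.9%), against 24% of all 35116 promoters in the table. The CCAAT letters were found in 38 (66.7%, against 34.6%), and 22 promoters held them more than 1 time (38.6%, against 10.8%). Both motifs occurred in 29 promoters (50.9%, against 9.27%). Counted by gene, 37 of 43 held the CHR letters in at least 1 promoter (86%, against 27.9% of all genes in the table), and 1 gene, CENPI, held neither motif. Of the 63 CHR matches, 38 (60.3%) began within 50 bases of the start, against 26.2% of such matches over all promoters and 63.2% over those of other mitotic genes outside the list. The share for CCAAT matches was 16.7%, against 23.1%. Promoters of those other mitotic genes held the CHR letters in 37.2% and the CCAAT letters in 50.7%, and promoters of DNA replication genes in 14% and 52.6%. These matches are a description of the letters in the window and not of binding. Windows of 1 gene can overlap.

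**Figure D1:**
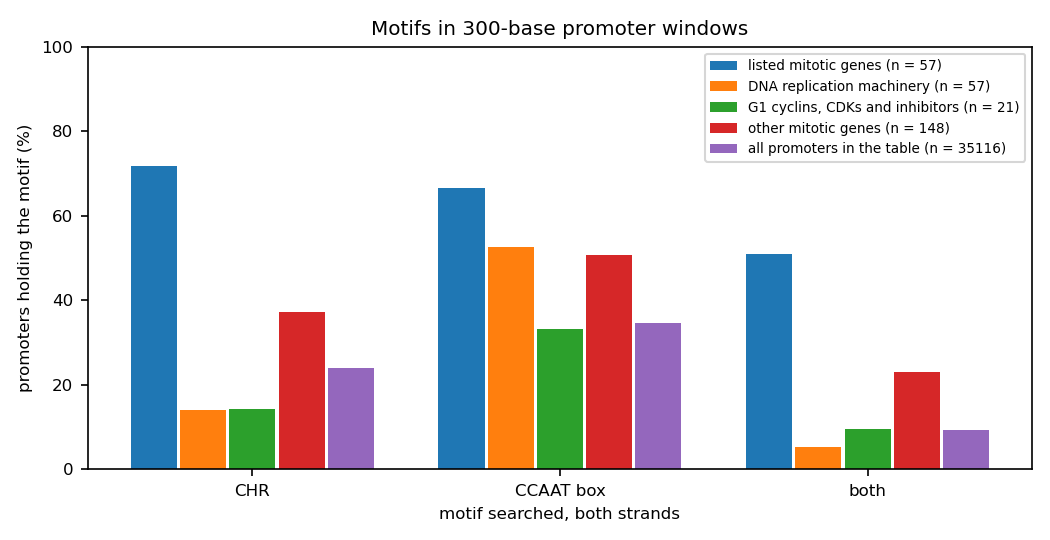
The bars give the percentage of 300-base promoter windows that hold the CHR letters, the CCAAT letters or both, for the listed mitotic genes, the comparison lists and all promoters in the RefSeq table. The listed genes have the tallest bar for each motif, with 71.9% for the CHR against 37.2% in other mitotic genes and 14% in DNA replication genes, and 66.7% for the CCAAT box against 50.7% and 52.6%.

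The promoters of the 6 listed genes with the largest difference between the array numbers and an entry in the table are shown, since these genes carried the largest differences described below. They are written 5′ to 3′ on the strand of the gene, with the matches in capitals. ANLN lies at chr7:36389612-36389911 on the plus strand, HMMR at chr5:163460382-163460681 on the plus strand and DLGAP5 at chr14:55191536-55191835 on the minus strand. NCAPH lies at chr2:96335516-96335815 on the plus strand, NUF2 at chr1:163321704-163322003 on the plus strand and CENPK at chr5:65563119-65563418 on the minus strand. CENPH, a further gene of this kind, had no entry.
ANLN: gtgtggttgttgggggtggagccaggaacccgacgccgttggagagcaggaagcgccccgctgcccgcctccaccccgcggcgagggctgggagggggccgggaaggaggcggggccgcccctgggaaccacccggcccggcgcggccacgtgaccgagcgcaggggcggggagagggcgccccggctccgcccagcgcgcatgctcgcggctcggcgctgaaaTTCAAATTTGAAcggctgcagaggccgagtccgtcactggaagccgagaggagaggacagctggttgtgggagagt
HMMR: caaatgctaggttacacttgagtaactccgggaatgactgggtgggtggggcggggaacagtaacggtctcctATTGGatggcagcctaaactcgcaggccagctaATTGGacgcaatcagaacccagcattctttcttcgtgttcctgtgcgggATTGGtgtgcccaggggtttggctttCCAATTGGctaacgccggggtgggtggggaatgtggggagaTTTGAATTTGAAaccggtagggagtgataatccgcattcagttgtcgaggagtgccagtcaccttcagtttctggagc
DLGAP5: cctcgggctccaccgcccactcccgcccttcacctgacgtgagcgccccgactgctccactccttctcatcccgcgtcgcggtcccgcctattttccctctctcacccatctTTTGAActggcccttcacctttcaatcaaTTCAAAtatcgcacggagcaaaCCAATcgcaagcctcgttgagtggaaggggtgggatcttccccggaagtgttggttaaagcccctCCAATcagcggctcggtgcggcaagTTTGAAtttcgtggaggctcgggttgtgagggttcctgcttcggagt
NCAPH: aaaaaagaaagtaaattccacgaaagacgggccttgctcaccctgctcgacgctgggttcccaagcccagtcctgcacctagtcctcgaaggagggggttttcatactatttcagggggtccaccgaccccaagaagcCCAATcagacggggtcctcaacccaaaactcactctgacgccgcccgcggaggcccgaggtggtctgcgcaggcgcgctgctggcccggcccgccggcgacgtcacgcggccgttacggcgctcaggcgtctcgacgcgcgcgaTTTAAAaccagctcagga
NUF2: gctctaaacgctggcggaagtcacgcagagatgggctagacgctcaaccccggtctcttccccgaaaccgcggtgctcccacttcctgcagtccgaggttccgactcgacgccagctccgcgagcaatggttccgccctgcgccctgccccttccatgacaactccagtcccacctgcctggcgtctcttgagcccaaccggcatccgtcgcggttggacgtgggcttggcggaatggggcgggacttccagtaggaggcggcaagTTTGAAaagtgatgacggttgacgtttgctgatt
CENPK: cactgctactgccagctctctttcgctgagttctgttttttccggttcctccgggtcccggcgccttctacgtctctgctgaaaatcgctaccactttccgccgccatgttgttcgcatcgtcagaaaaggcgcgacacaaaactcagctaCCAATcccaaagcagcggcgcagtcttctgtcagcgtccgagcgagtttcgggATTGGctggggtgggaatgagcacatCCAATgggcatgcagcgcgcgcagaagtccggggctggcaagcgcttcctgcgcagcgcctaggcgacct

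Positions are counted from the start, with the first transcribed base as 1 and the base before it as -1. In ANLN, a pair of CHR matches stood side by side from -26 to -15, and no CCAAT match was present. In HMMR, another adjoining pair ran from -28 to -17, downstream of 5 CCAAT matches between -177 and -62, of which the last 2 overlap. DLGAP5 had CHR matches beginning at -138, -109 and 4 and CCAAT matches beginning at -87 and -22. NCAPH had 1 CCAAT match at -112 and 1 CHR match at 33, and NUF2 had only a CHR match, at 17. CENPK had no CHR match and 3 CCAAT matches, at -99, -46 and -20.

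The first question was whether the mitotic genes differed between miR-124-transduced and control cells. None of the 51 genes passed the study's threshold (limma, unadjusted p under 0.05 with a fold change above 1.5), which 28 of 18244 genes passed (0.153%), 12 of them higher (0.0658%) and 16 lower (0.0877%). The paper reports far more differentially expressed genes at the same cut-offs, and the fits used here do not reproduce that number. It also reports lower MYC and E2F target genes by gene set enrichment analysis, which was not run here. With miR-124, 21 mitotic genes were higher and 30 lower, by a median of -0.05 on the log2 scale (quartiles -0.15 and 0.10), where all genes had a median of 0.01. The differences ran from -0.46 for CENPK to 0.39 for CDC25B. At an unadjusted p under 0.05 alone, with the condition as the only term, 1 mitotic gene was found, against 4.46% of all genes. No gene of the array had a Benjamini-Hochberg adjusted p under 0.05 in limma between the conditions, and 813 genes had an unadjusted p under 0.05. Over every probe set of the mitotic genes, 58 were higher and 80 lower and none of the 138 passed, where 0.185% of all probe sets did. In that fit a dimmer probe set of PLK1 (0.31, unadjusted p = 0.0206, limma) and of KIF2C (0.33, unadjusted p = 0.0354, limma) was higher with miR-124. The brightest probe sets of these genes gave smaller differences of 0.17 and 0.12, with an unadjusted p above 0.05.

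The gene found in the fit over genes was CDC25B, the phosphatase that activates CDK1 at mitotic entry. Its log2 signal was 11.27 in control 1 and 11.34 in control 2, against 11.72 in miR-124 1 and 11.68 in miR-124 2. The groups did not overlap, and the difference was 0.39 (SE 0.08, adjusted p = 0.886, limma), or 1.31-fold. The other 4 CDC25B probe sets gave smaller differences of 0.33, 0.06, 0.21 and 0.16, in the same direction. Both miR-124 arrays lay above both control arrays for 3 mitotic genes in all, CDC25B, CENPM and CDCA8, where 18.7% of all genes did so, and both lay below for 0 of them, where 15.5% did so. CENPM, a constitutive centromere protein, was at 9.88 in control 1 and 9.84 in control 2, against 10.26 in miR-124 1 and 9.91 in miR-124 2. CDCA8, the borealin subunit of the chromosomal passenger complex, was at 9.76 in control 1 and 9.92 in control 2, against 10.21 in miR-124 1 and 9.92 in miR-124 2. In CDCA8 the miR-124 2 value lay only just above that of control 2.

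The absence of genes past the threshold rested on 1 array. Without miR-124 replicate 1, 6 mitotic genes passed (CENPI, CENPK, DLGAP5, ECT2, HMMR and MAD2L1, all lower), and 340 genes did so over the array (1.86%). In that setting the miR-124 condition is the array numbered 2 alone, set against controls of both numbers, and part of the difference between numbers enters that contrast. Without each of the other 3 arrays the count was 0.

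The second comparison was between the arrays numbered 1 and those numbered 2, with the condition kept in the fit. Here 50 of the 51 mitotic genes were lower in the arrays numbered 2, where 49.3% of all genes were lower. The median difference was -0.39 (quartiles -0.51 and -0.32), against 0.00 over all genes. An unadjusted p under 0.05 with a lower value was found for 46 of them (90.2%), against 9.06% of all genes, and the 5 others were BUB3, CENPM, CDCA8, MKI67 and CDC25B. In 48 of 51 genes both arrays numbered 2 lay below both arrays numbered 1, which 22.1% of all genes showed. The study's threshold was passed by 7 mitotic genes, all lower (13.7%), whereas it was passed by 423 genes over the array (2.32%), with 129 lower (0.707%) and 294 higher (1.61%). No mitotic gene had an adjusted p under 0.05, a level that 17 genes of the array reached (0.0932%), and the lowest adjusted p among the mitotic genes was 0.0769 for CENPH. Of the variance of the mitotic genes over the 4 arrays, 77.5% lay between the array numbers, 12.6% between the conditions and 9.92% in the remaining contrast, and over all genes these shares were 60%, 27% and 13%.

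**Figure D2:**
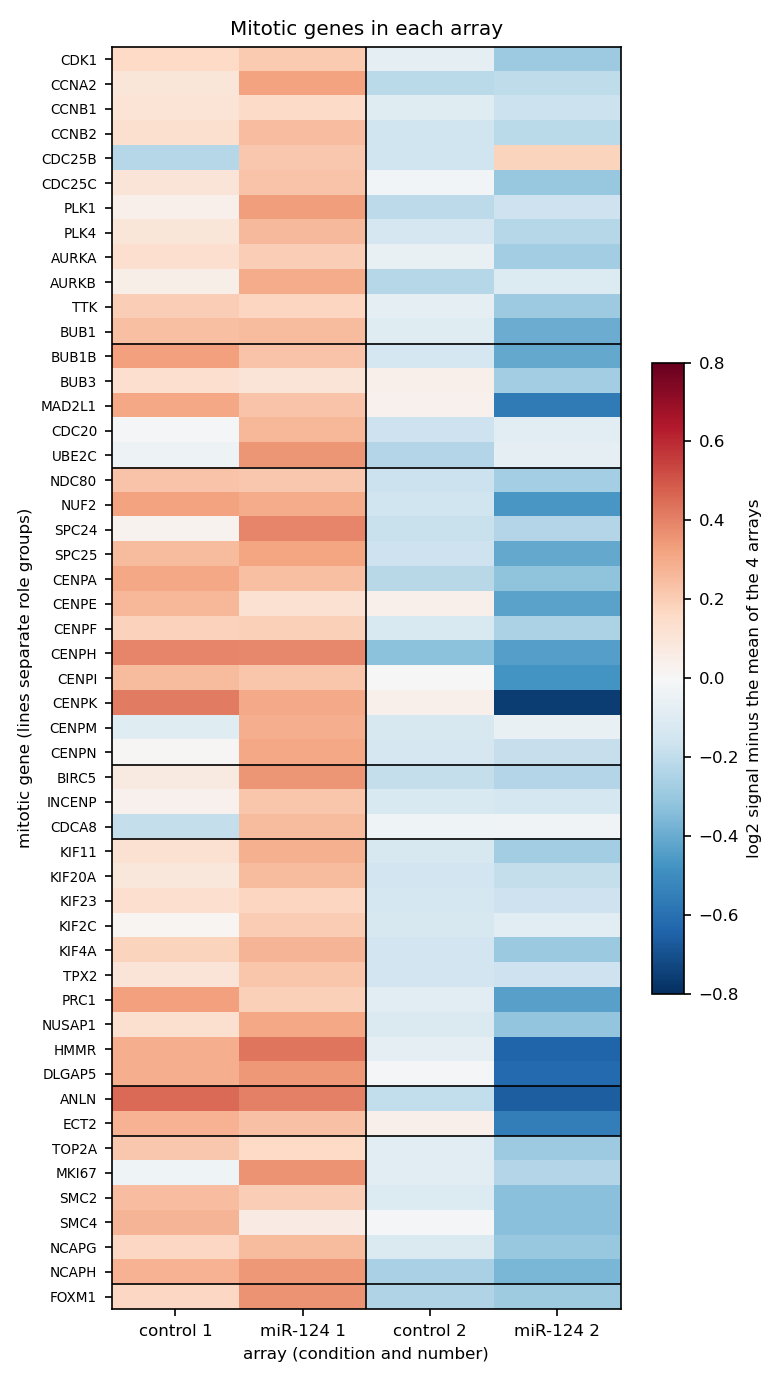
Each row is 1 of the 51 mitotic genes and each column 1 array, and the color gives the log2 signal minus the gene's mean over the 4 arrays. The arrays numbered 1, on the left, are above the mean for most genes and those numbered 2 are below it, with miR-124 2 the lowest array for 42 genes.

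ANLN, the cytokinetic scaffold protein anillin, had the largest difference between the numbers. Its log2 signal was 9.91 in control 1 and 9.87 in miR-124 1, and 9.26 in control 2 and 8.81 in miR-124 2. The arrays numbered 2 were lower by 0.86 (log2 difference -0.86, SE 0.12, adjusted p = 0.0898), or 1.81-fold. Its 3 other probe sets were lower as well, by log2 differences of -1.02, -0.90 and -0.56. ECT2, the exchange factor that activates RhoA for the cleavage furrow, was at 9.04 in control 1, 8.996 in miR-124 1, 8.81 in control 2 and 8.21 in miR-124 2. Its log2 difference of -0.51 (SE 0.15, adjusted p = 0.172) stayed short of the fold threshold, and the larger part of it lay within miR-124.

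Among the 12 kinetochore and centromere genes, all were lower in the arrays numbered 2, with a median of -0.46, and 3 passed the threshold. CENPH, of the constitutive centromere network, was at 8.57 in control 1 and 8.56 in miR-124 1, against 7.85 in control 2 and 7.73 in miR-124 2. The 2 conditions were nearly level at each number, and the log2 difference was -0.77 (SE 0.08, adjusted p = 0.0769), or 1.71-fold lower, with the lowest p of the list. CENPK, its partner in the same network, was at 8.86 in control 1 and 8.74 in miR-124 1, against 8.48 in control 2 and 7.68 in miR-124 2. The log2 difference of -0.72 (SE 0.18, adjusted p = 0.143, 1.65-fold lower) was larger within miR-124 than within control. NUF2, a subunit of the NDC80 complex that binds the microtubule, was at 9.97 in control 1 and 9.95 in miR-124 1, against 9.49 in control 2 and 9.18 in miR-124 2. This gave a log2 difference of -0.62 (SE 0.10, adjusted p = 0.0951, 1.54-fold lower). Its complex partners SPC25 (-0.57), NDC80 (-0.44) and SPC24 (-0.42) were lower too, without passing. The dimmer SPC24 probe sets gave smaller differences of -0.20, -0.28, -0.11 and -0.13. CENPA, the centromeric histone H3 variant, was at 10.53 and 10.46 in the arrays numbered 1 and 9.99 and 9.90 in those numbered 2, a log2 difference of -0.55 (adjusted p = 0.0825) just short of the fold threshold. The kinesin CENPE, the corona protein CENPF and CENPI were lower by log2 differences of -0.39, -0.37 and -0.48. The smallest difference of the group was that of CENPM, at -0.19 (adjusted p = 0.378). CENPN, which binds CENPA nucleosomes, was at 11.37 in control 1, 11.67 in miR-124 1, 11.23 in control 2 and 11.18 in miR-124 2. Its arrays numbered 1 differed from each other by more than its controls did, and the log2 difference between numbers was -0.32 (adjusted p = 0.216).

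**Figure D3:**
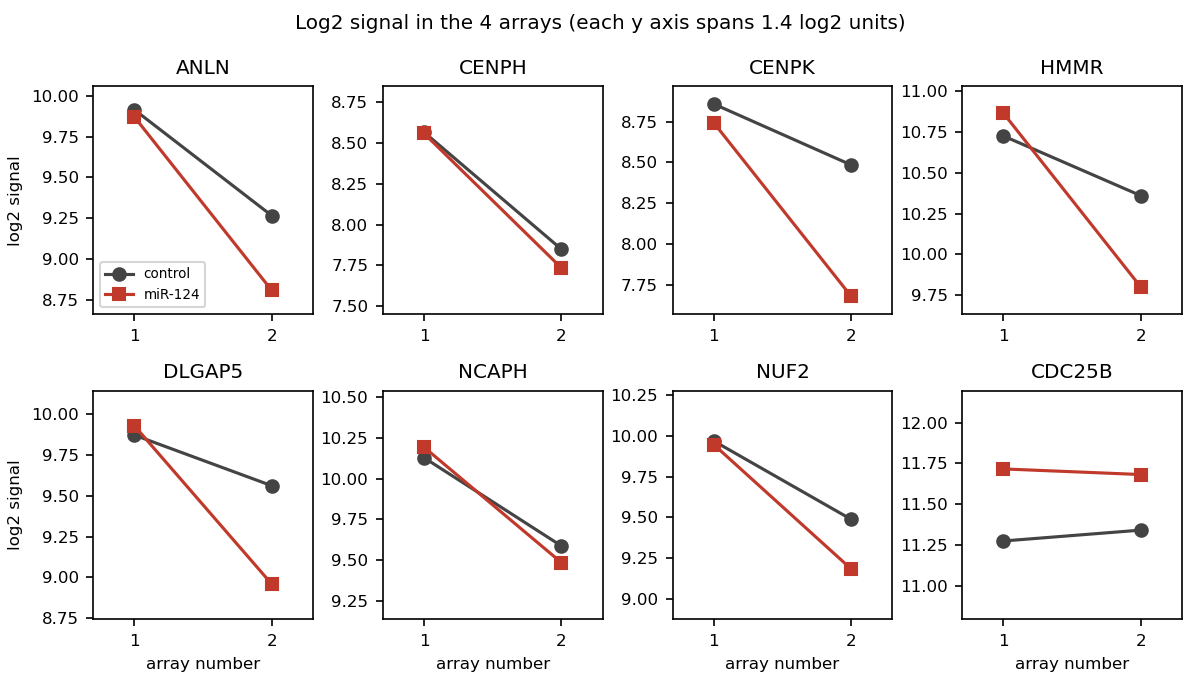
Each panel gives the log2 signal of 1 gene in the arrays numbered 1 and 2, with control and miR-124 joined by separate lines, for the 7 genes past the threshold between array numbers and for CDC25B. In the 7 genes both lines go down from array 1 to array 2, by 1.54-fold to 1.81-fold in the fit, whereas the CDC25B lines lie apart by condition and are nearly level.

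All 10 mitotic kinesins and spindle proteins were lower in the arrays numbered 2, with a median of -0.42, and 2 passed. HMMR, a microtubule-associated protein of the spindle and a hyaluronan receptor, was at 10.73 in control 1 and 10.87 in miR-124 1, against 10.36 in control 2 and 9.80 in miR-124 2. Its log2 difference was -0.72 (SE 0.18, adjusted p = 0.146, 1.64-fold lower), and its 4 probe sets all passed the threshold in the probe set fit. DLGAP5, which stabilizes kinetochore fibers, was at 9.87 in control 1 and 9.93 in miR-124 1, against 9.56 in control 2 and 8.96 in miR-124 2. The log2 difference was -0.64 (SE 0.17, adjusted p = 0.157, 1.56-fold lower), and miR-124 2 was again the lowest array. NUSAP1, which binds spindle microtubules, was at 11.43 in control 1, 11.61 in miR-124 1, 11.19 in control 2 and 10.99 in miR-124 2 (log2 difference -0.43, adjusted p = 0.155). The remaining members did not pass, with log2 differences from -0.52 for PRC1, the bundler of the central spindle, to -0.22 for the microtubule depolymerase KIF2C. Between them lay KIF4A (-0.45), the bipolar motor KIF11 (-0.40), KIF20A (-0.34), TPX2 (-0.32), an activator of Aurora A, and KIF23 (-0.31), a motor of the central spindle.

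Of the 6 chromosome structure genes, all were lower in the arrays numbered 2, with a median of -0.40, and 1 passed. NCAPH, the kleisin subunit of condensin I, was at 10.13 in control 1 and 10.19 in miR-124 1, against 9.59 in control 2 and 9.48 in miR-124 2. The log2 difference was -0.62 (SE 0.08, adjusted p = 0.0825, 1.54-fold lower). This value rested on 1 probe set, since the other 2 NCAPH probe sets lay between 5.26 and 5.73, close to the mean of the array's background probe sets of 5.18 to 5.23, and differed by -0.01 and -0.04. With the mean of its probe sets NCAPH no longer passed (log2 difference -0.23). SMC4, a core subunit of condensin, was at 11.99 in control 1, 11.78 in miR-124 1, 11.70 in control 2 and 11.38 in miR-124 2. Its log2 difference was -0.34 (adjusted p = 0.125). TOP2A, the topoisomerase that untangles sister chromatids, was at 12.74 in control 1, 12.69 in miR-124 1, 12.44 in control 2 and 12.24 in miR-124 2. The log2 difference was -0.37 (adjusted p = 0.118), with both arrays numbered 2 below both numbered 1. The other condensin subunits SMC2 and NCAPG differed by -0.44 and -0.42. MKI67, which coats mitotic chromosomes and gives the Ki-67 proliferation index, was at 11.17 in control 1, 11.56 in miR-124 1, 11.11 in control 2 and 10.97 in miR-124 2. Its controls were nearly level, and the log2 difference was -0.32 (adjusted p = 0.311).

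The 12 mitotic kinases, cyclins and phosphatases had a median of -0.36 between the array numbers. Of these, 11 were lower and 0 passed the threshold, although 11 had an unadjusted p under 0.05. CDK1, the kinase of mitotic entry, was at 12.47 in control 1, 12.52 in miR-124 1, 12.23 in control 2 and 12.03 in miR-124 2. Its log2 difference was -0.37 (SE 0.09, adjusted p = 0.146), or 1.29-fold lower. BUB1, a checkpoint kinase of the kinetochore, had the largest difference of the group. It was at 9.97 in control 1, 9.98 in miR-124 1, 9.63 in control 2 and 9.34 in miR-124 2 (log2 difference -0.49, adjusted p = 0.115). PLK1 (-0.37), AURKA (-0.34), AURKB (-0.34) and TTK (-0.37) differed by much the same amount, as did PLK4 (-0.36), the kinase of centriole duplication, and CDC25C (-0.33). The cyclins CCNA2, CCNB2 and CCNB1 differed by -0.42, -0.38 and -0.26. The PLK1 value rested on its brightest probe set, and its remaining probe sets gave smaller differences of -0.15 and -0.07. CDC25B alone was not lower, at a log2 difference of 0.02 (adjusted p = 0.933). It was also the only mitotic gene with probe sets in both directions, of 0.02, 0.01, -0.29, -0.07 and -0.15, and with the mean of its probe sets the sign turned (-0.10).

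The 5 measured genes of the spindle checkpoint and the anaphase-promoting complex were all lower in the arrays numbered 2, with a median of -0.31, and 0 passed. BUB1B was at 10.13 in control 1, 10.03 in miR-124 1, 9.66 in control 2 and 9.39 in miR-124 2, for a log2 difference of -0.55 (adjusted p = 0.0907). MAD2L1 was at 11.43 in control 1, 11.35 in miR-124 1, 11.15 in control 2 and 10.55 in miR-124 2, for a log2 difference of -0.54 (adjusted p = 0.154). The remaining MAD2L1 probe sets gave -0.36, -0.56 and -0.09. BUB1B and MAD2L1 are both part of the mitotic checkpoint complex that inhibits CDC20. BUB3, the third arm of that complex, was at 12.90 in control 1, 12.87 in miR-124 1, 12.81 in control 2 and 12.49 in miR-124 2, and its log2 difference of -0.23 had adjusted p = 0.282. CDC20 itself and UBE2C, a ubiquitin-conjugating enzyme of the anaphase-promoting complex, differed by -0.25 and -0.31.

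The chromosomal passenger genes had the smallest group median, -0.26, with 3 of 3 lower and 0 past the threshold. BIRC5, or survivin, was at 11.59 in control 1, 11.87 in miR-124 1, 11.32 in control 2 and 11.28 in miR-124 2 (log2 difference -0.43, adjusted p = 0.138). It had 12 probe sets, all lower in the arrays numbered 2, and 2 of them passed with log2 differences of -0.87 and -0.67, where its brightest probe set did not. INCENP differed by -0.26. CDCA8 was nearly level between the numbers, at -0.06 (adjusted p = 0.833), since control 2 lay above control 1. FOXM1, the transcription factor of G2 and M phase genes, was at 9.46 in control 1, 9.65 in miR-124 1, 9.06 in control 2 and 9.01 in miR-124 2. Its log2 difference was -0.52 (SE 0.09, adjusted p = 0.102), below the fold threshold.

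**Figure D4:**
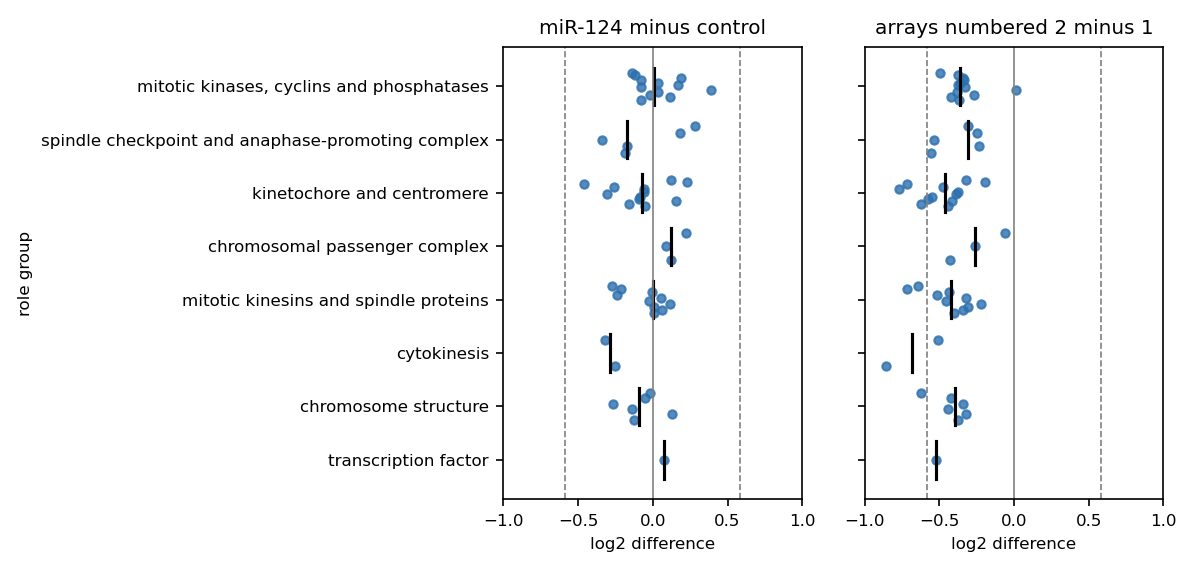
Each point is 1 mitotic gene, grouped by role, with its log2 difference between the conditions in the left panel and between the array numbers in the right panel. The black bars are group medians and the dashed lines mark a 1.5-fold difference, a log2 difference of 0.585 in either direction. The points of the left panel lie on both sides of 0 and those of the right panel lie below it, apart from CDC25B at 0.02.

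At the edge of the threshold, NUF2 and NCAPH at -0.62 lay just inside, and SPC25 (-0.57), BUB1B (-0.55), CENPA (-0.55) and MAD2L1 (-0.54) just outside. The 138 probe sets of the mitotic genes gave the same direction. Of these, 136 were lower in the arrays numbered 2, where 49.4% of all probe sets were, and the 2 exceptions belonged to CDC25B. In the fit over all probe sets 22 passed the threshold as lower and 0 as higher, against 0.876% of all probe sets past it as lower, and none had an adjusted p under 0.05. They came from 13 genes, the 7 above and BIRC5, CCNA2, CENPA, MKI67, NUSAP1 and SMC2, whose brightest probe sets had not passed. Probe sets of 1 gene share its transcripts and are no replicates.

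The difference between the array numbers was seen within each condition. In control cells 49 of 51 genes were lower in array 2, with a median of -0.28 (from -0.72 to 0.16), and the exceptions were CDC25B at 0.07 and CDCA8 at 0.16. In miR-124-transduced cells 51 of 51 were lower, with a median of -0.53 (from -1.07 to -0.03). Of all 18244 genes, 8766 were lower in array 2 in control cells and 8939 in miR-124-transduced cells. In 49 genes the value was lower in both conditions, which 31.7% of all genes showed. For each of the 51 genes the difference was more negative in miR-124-transduced cells than in control cells, by a median of -0.24, where 48.9% of all genes showed this. With 1 array for each condition and number this has no replicate check and was not tested, and the shares over genes do not measure it, since all genes were read from the same 4 arrays. The lowest of the 4 values was that of miR-124 2 in 42 genes (31.2% over all genes), of control 2 in 7 and of control 1 in 2. The highest was that of miR-124 1 in 34 and of control 1 in 17. Of all 18244 genes, control 2 was lowest in 3593 and control 1 in 5084, and miR-124 1 was highest in 4001 and control 1 in 4575.

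**Figure D5:**
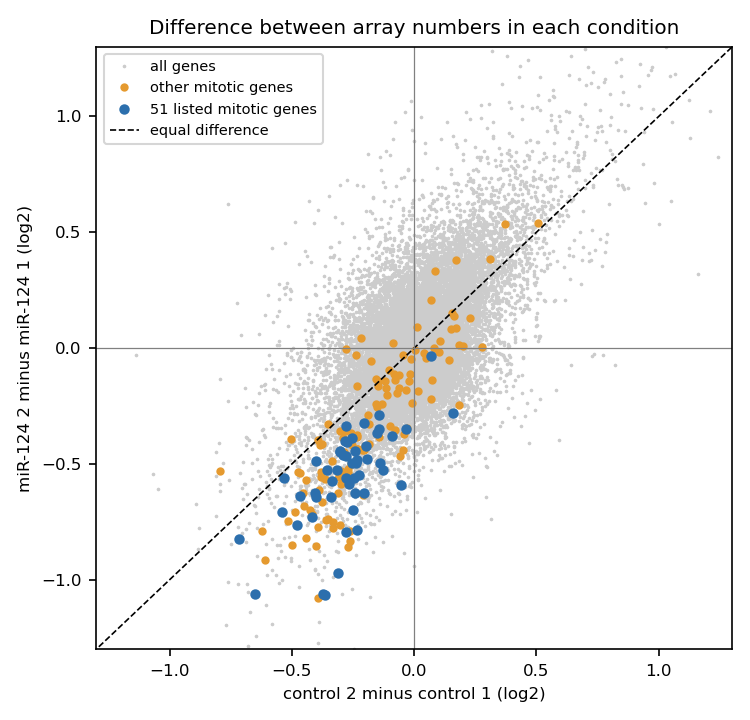
Each point is a gene, placed by control 2 minus control 1 on the x axis and miR-124 2 minus miR-124 1 on the y axis, both as log2 differences, with the axes limited to 1.3 in each direction and 76 genes beyond them. The 51 listed genes lie below the line of equal difference, and 49 of them lie below 0 on both axes.

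The direction between the conditions was not the same at both array numbers, a difference that was not tested. Among the arrays numbered 1, miR-124 was above control for 34 mitotic genes and below for 17, with a median of 0.06. Among those numbered 2 it was above for 9 and below for 42, with a median of -0.14. Over all 18244 genes, miR-124 was above control for 9473 and below for 8659 at number 1. At number 2 it was above for 9559 and below for 8619, and both medians were 0.01. In 25 of the 51 genes miR-124 was higher at number 1 and lower at number 2, against 18.7% of all genes. The opposite was shown by 0 of them, against 3476 of all 18244 genes. FOXM1 was among the 25, at 0.19 and -0.04, as was HMMR, at 0.14 and -0.56. CDC25B was higher at both numbers, by 0.44 and 0.34.

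Other genes of mitosis outside the list, 123 measured of 125, were compared on the same arrays. Between the conditions 56 were higher and 67 lower and 0 passed the threshold, which 0.153% of all genes passed. Between the numbers the median was -0.27, with 102 lower (82.9%) and 21 higher, and 9 passed, all lower (7.32%). Of all genes, 49.3% were lower and 0.707% passed as lower. Lower values were most frequent among the 33 spindle, kinesin and cytokinesis genes (32 lower, median -0.34, 4 passed) and the 15 kinases and regulators of mitotic entry (14 lower, median -0.33, 1 passed). The 32 other kinetochore genes had a median of -0.40, with 27 lower and 3 past the threshold, and the 14 cohesin, separase and condensin genes a median of -0.18, with 13 lower and 0 past it. The 17 genes of the anaphase-promoting complex had a median of -0.00, with 9 lower, and the 12 DREAM and MuvB regulators one of -0.08, with 7 lower.

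The 9 that passed were FAM83D, ASPM, KIF15, DEPDC1, PBK, FBXO5 and the 3 subunits of the SKA complex. PBK, a mitotic protein kinase, was at 10.07 in control 1, 9.92 in miR-124 1, 9.46 in control 2 and 9.004 in miR-124 2. Its log2 difference was -0.76 (SE 0.10, adjusted p = 0.0827). The SKA complex, which couples kinetochores to depolymerizing microtubules, was lower in all 3 subunits, SKA1 by a log2 difference of -0.60 (adjusted p = 0.0907), SKA2 by -0.68 (adjusted p = 0.0955) and SKA3 by -0.71 (adjusted p = 0.0807). FBXO5, the EMI1 inhibitor of the anaphase-promoting complex, was at 9.46 in control 1, 9.52 in miR-124 1, 9.06 in control 2 and 8.44 in miR-124 2. It was the only gene of its group to pass (log2 difference -0.74, adjusted p = 0.137), and its lowest value was in miR-124 2. The spindle protein ASPM and the kinesin KIF15 each differed by -0.63.

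Set beside the lists nearest in the cell cycle, the mitotic genes had the more negative median between the numbers, a description with no test of the difference. DNA replication genes, 50 measured of 51, had 48 lower, 4 past the threshold and a median of -0.30, with 33 at an unadjusted p under 0.05 (66%). Of all genes 49.3% were lower, 2.32% passed and 9.06% had an unadjusted p under 0.05 with a lower value. The difference was more negative in miR-124-transduced cells than in control cells for 45 of the 50 replication genes (90%). G1 cyclins, CDKs and inhibitors, 18 measured of 19, had 13 lower, 1 past the threshold (E2F2, -0.72) and a median of -0.10. Their difference was more negative in miR-124-transduced cells for 6 (33.3%), against 48.9% of all genes. In both conditions 10 of the 18 were lower, against 31.7% of all genes. Neither list had a gene past the threshold between the conditions.

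The 4 arrays had medians of 7.28 to 7.32. Of the T cell markers 10 of 11 were measured. CD3D (11.97 to 12.07), CD3G, CD2, ZAP70 and CD247 lay well above the background mean, while CD3E (5.33 to 5.82), CD4 (6.14 to 6.24), CD5, CD28 and LCK lay near it. Of the Sézary markers, TWIST1 (9.12 to 9.72) and KIR3DL2 (10.01 to 10.44) were high and PLS3 (3.70 to 3.85) was at background. DNM3 and TOX completed this list, of which 4 of 5 genes lay above the median level of all genes. In the arrays numbered 2, 4 of 5 Sézary markers were lower and 1 higher, and 4 of 10 T cell markers were lower and 6 higher. Of all genes 49.3% were lower. The marker lists of other cell types also differed between the numbers. The fibroblast list had mean log2 levels of 6.51 to 6.52 in the arrays numbered 1 and 6.64 to 6.69 in those numbered 2, with 4 of 5 genes higher. The keratinocyte list had 6.26 in both arrays numbered 1 and 6.04 to 6.16 in those numbered 2, with 4 of 5 genes lower. The median level of its genes was 5.03, under the background mean of 5.18 to 5.23, and 1 of 5 lay above the median level of all genes. The median level of the fibroblast genes was 5.57, near that background mean. The B cell list, 4 of 5 measured, went from 7.70 to 7.84 in control and from 7.53 to 7.68 in miR-124, with 3 of 4 genes higher, and the myeloid list ran from 6.36 to 6.46 over the 4 arrays. Of these lists COL3A1 alone passed (0.72), and DCN and LUM lay under the background mean on all 4 arrays. The GAPDH 3' minus 5' probe set difference was -0.45 and -0.40 in the arrays numbered 1 and -0.35 and -0.24 in those numbered 2. That of ACTB differed by condition instead, at 1.17 and 1.13 in control and 0.97 and 0.99 in miR-124. The part of these differences in the result was not tested.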

How the data were processed

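Total RNA of SeAx cells was hybridised to 4 Affymetrix PrimeView arrays, 2 per condition, and groups and numbers were taken from the sample labels. One methods paragraph names Agilent arrays instead. The authors deposited log2 values after background correction, quantile normalization and RMA, and RMA and limma stand, with no version, in the submitters' processing notes. Quantile normalization hides changes in total RNA, so differences are relative to other genes. Of 49495 probe sets, 202 array controls were left out and 45278 of the other 49293 had 1 gene symbol (1333 several, 2682 none). Each of 18244 genes was represented by its probe set with the highest mean.

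Differences were tested across all genes with lmFit and eBayes (limma 3.58.1, R 4.3.3), with condition as the only term (2 residual degrees of freedom, prior 2.58) and with number and condition (1 residual, prior 3.34). Adjusted p-values are Benjamini-Hochberg over all genes. The limma fits were tested on simulated data. Its noise was independent between arrays, and it held no difference between array numbers where the condition was tested, unlike these arrays.

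The gene list, its role groups and the comparison lists were chosen with earlier results of these data known. Values in every array are given for genes past the threshold and, in each role group, for the gene of the brightest probe set and those with the largest difference in each contrast. CENPA, CENPM and MKI67 were added after their values were seen. Other mitotic genes are named where they passed. Promoters are printed for the 6 genes with the largest difference between array numbers, an entry in the table and a match. Alternatives were a replicate block, number as the only term, the mean of all probe sets, a filter on dim genes, cyclic loess, trend and robust fitting, every probe set, adjusted p-values and each array left out.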

Additional observations from a re-analysis of the deposited data

Results flagged for a closer look

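The median over the 51 mitotic genes of miR-124 minus control had opposite signs at the 2 array numbers. It was 0.064 (log2) among the arrays numbered 1, with 34 genes higher, and -0.1438 among the arrays numbered 2, with 42 genes lower. Over all 18244 genes the medians were 0.0068 and 0.0121, with 9473 genes higher at number 1 and 8619 lower at number 2. With 1 array for each condition and number, the difference was not tested.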

How the results depend on the processing

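Between the array numbers, 7 mitotic genes passed the threshold with number as the only term, the filter on dim genes, cyclic loess and trend and robust fitting. With the mean of all probe sets 6 passed (NCAPH, at -0.23, was lost), over every probe set 22 did, and with an adjusted p under 0.05 in limma 0 did (46 at an unadjusted p under 0.05). The other mitotic genes past it numbered 9 to 13. Leaving out 1 array leaves the difference within the other condition with no test, and the median then ran from -0.53 to -0.28. The sign of CDC25B turned with the mean of its probe sets (-0.10).

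Between the conditions, 0 mitotic genes passed in each setting that kept all 4 arrays. With each array left out, the count ran from 0 to 6, that of other mitotic genes from 0 to 10, and the median from -0.32 to 0.26. The 6 and the 10 arose without miR-124 replicate 1, where CENPK (-0.99), DLGAP5, ECT2, HMMR, MAD2L1 and CENPI passed. The lone array of a condition is then assumed to vary like the others. The sign turned in at least 1 such setting for 44 of the 51 genes. Among those chosen by the rule for values in every array, the values ran from -0.78 to 0.28 for ANLN, -0.18 to 0.41 for BIRC5, -0.47 to 0.18 for BUB1, -0.50 to 0.14 for BUB1B, -0.36 to 0.0149 for BUB3, -0.33 to 0.17 for CDK1, -0.47 to 0.35 for CENPH, -0.99 to 0.0715 for CENPK, -0.12 to 0.37 for CENPN, -0.76 to 0.21 for DLGAP5, -0.71 to 0.0731 for ECT2, -0.25 to 0.40 for FOXM1, -0.74 to 0.32 for HMMR, -0.74 to 0.0556 for MAD2L1, -0.37 to 0.33 for NCAPH, -0.54 to 0.22 for NUF2, -0.32 to 0.30 for NUSAP1 and -0.35 to 0.0946 for TOP2A. CDC25B, CDC20, UBE2C, CENPE, CENPM, CDCA8 and SMC4 kept their direction in these settings. CDC25B ran from 0.36 to 0.42, CDC20 from 0.005 to 0.355, UBE2C from 0.07 to 0.49 and CENPE from -0.58 to -0.04. CENPM ran from 0.05 to 0.40, CDCA8 from 0.08 to 0.37 and SMC4 from -0.47 to -0.07.

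With a replicate block for the array number, 0 mitotic genes passed between the conditions, against 49 genes over the array, the median stayed at -0.05 and that of CDC25B at 0.39. At an unadjusted p under 0.05 this fit found 5 mitotic genes in place of 1, CDC25B and UBE2C (0.28) higher and SMC4 (-0.27), CENPE (-0.31) and PRC1 (-0.24) lower, where 13.7% of all genes (2505) were found, and 0 had an adjusted p under 0.05. The deviations of same-numbered arrays from their condition means correlated across the 18244 genes (r = 0.67), but there are only 2 pairs and no label says that a number pairs samples. With 2 arrays per condition, their number limits the precision.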
